A study of Mus musculus with 30 samples.

Results

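The DNA replication and S-phase genes described here are 44 protein-coding genes whose products license, start and carry out chromosomal DNA synthesis. They were taken from a fixed list of mouse symbols matched through Ensembl identifiers without their version suffix. All 44 were found among the 57186 gene identifiers of the count table, and all 44 passed the filter on low counts in every fit. RNA had been sequenced from 2 mouse lines during treatment with cycloheximide, an inhibitor of translation elongation, given at 0.1 µg/mL. The fibroblast line NIH/3T3 was kept in DMEM with fetal bovine serum. The embryonic stem cells, CGR8, were kept in 2i/LIF in N2B27. The ROSA26 SLT knock-in was present in both lines at all times, also in the 0 h controls, so that every comparison is between cells with that allele. Whether either knock-in line is 1 clone is not given in the sources used here. Each line was sampled after 0, 1, 2, 5 and 48 h, with 3 libraries per line and time (replicates A, B and C), which makes 10 groups and 30 libraries. The study asked how the 2 transcriptomes respond to a block of protein synthesis, each time point being compared with 0 h of the same line.

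Before S phase, the origin recognition complex, CDC6 and CDT1 load the MCM helicase onto origins, and geminin restrains CDT1 once S phase has begun. CDC45 and the GINS complex then activate the helicase, and primase with polymerase alpha, delta and epsilon copies the template, helped by the sliding clamp PCNA, its loader RFC and the single-strand binding protein RPA. Many of these genes are targets of E2F transcription factors, are transcribed from late G1 into S phase in serum-driven fibroblasts, and are expressed through most of the short cycle of embryonic stem cells.

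E2F factors bind short sites near the starts of such genes, so promoter sequences are shown for 4 members. RefSeq windows from 250 bases before to 50 bases after the annotated start (assembly GRCm38.p6) were matched by symbol for 36 of the 44 members. No window was used for Gmnn, Gins1, Gins2, Gins4, Mcm4, Prim2, Pole and Rfc2. The search covered the octamers TTTCGCGC, TTTGGCGC, TTTCCCGC and TTTGCCGC on both strands, whose matches may overlap. The 250 bases before the start are printed on the strand of the gene, in lower case with these octamers or their reverse complements in capitals. The 4 were chosen after their values were seen, as genes that behaved differently in NIH/3T3. Mcm6 was lower at 5 and 48 h, Mcm5 was lower at 48 h but not called at 5 h, Pola1 was not called at any time, and Chaf1a was lower at 2 and 5 h.
Mcm6, chr1:128359706-128359955 (minus strand): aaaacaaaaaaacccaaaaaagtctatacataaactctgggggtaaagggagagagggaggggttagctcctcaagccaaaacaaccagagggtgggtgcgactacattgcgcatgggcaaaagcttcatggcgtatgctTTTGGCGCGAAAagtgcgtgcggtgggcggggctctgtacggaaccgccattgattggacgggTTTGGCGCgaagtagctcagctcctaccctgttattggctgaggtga
Mcm5, chr8:75109259-75109508 (plus strand): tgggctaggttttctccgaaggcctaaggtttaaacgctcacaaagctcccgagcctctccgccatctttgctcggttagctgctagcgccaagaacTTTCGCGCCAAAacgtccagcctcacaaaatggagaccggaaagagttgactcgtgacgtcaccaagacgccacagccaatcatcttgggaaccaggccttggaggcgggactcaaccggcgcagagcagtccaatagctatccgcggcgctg
Pola1, chrX:93632156-93632405 (minus strand): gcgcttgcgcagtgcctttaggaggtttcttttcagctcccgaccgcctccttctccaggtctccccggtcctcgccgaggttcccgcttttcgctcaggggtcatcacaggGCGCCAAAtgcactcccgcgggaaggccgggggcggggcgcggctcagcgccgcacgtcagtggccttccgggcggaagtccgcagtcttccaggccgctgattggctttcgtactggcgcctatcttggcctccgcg
Chaf1a, chr17:56040166-56040415 (plus strand): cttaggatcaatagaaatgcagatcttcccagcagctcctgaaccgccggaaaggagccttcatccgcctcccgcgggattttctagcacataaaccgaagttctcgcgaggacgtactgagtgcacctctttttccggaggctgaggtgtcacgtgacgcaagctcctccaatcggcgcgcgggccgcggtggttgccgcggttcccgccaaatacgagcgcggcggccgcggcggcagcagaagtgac
Mcm6 held 3 octamers, whose first bases lay 110, 106 and 47 bases before the start, and the first 2 overlap. Mcm5 held 2 overlapping octamers from 153 and 149 bases before the start, and Pola1 held 1 from 138 bases before it. None of the 4 octamers or their reverse complements was found in the printed Chaf1a stretch, and other forms of an E2F site were not searched. Over all 36 members with a window, 13 (36.1%) held at least 1 such octamer, against 704 of 27025 genes (2.6%) in the whole RefSeq table, where windows have the same length of 300 bases. The CCAAT box, searched as CCAAT on both strands, was in 61.1% of the members and 41.1% of all genes. The cell cycle homology region, searched as TTTGAA on both strands, was in 11.1% of the members and 20.2% of all genes. The E2F octamers were also set beside the direction of change in NIH/3T3 at 5 h. At least 1 was held by 4 of the 8 members lower there, by 1 of the 6 higher members with a window and by 8 of the 22 not called. In NIH/3T3 at 48 h, 11 of 31 lower members and 2 of 5 not called held at least 1. In CGR8 at 5 h, 6 of 21 higher members, 1 of 1 lower and 6 of 14 not called did. In CGR8 at 48 h, 1 of 2 higher members, 2 of 7 lower and 10 of 27 not called did. Differences between these shares were not tested. These matches describe letters in a window, and binding was not measured.

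The libraries held between 18.2 and 30.5 M counts each. The lines carried the markers of their labels: 6 stem cell markers summed to between 4240 and 7190 CPM (counts scaled to a common library size of 1000000) in CGR8 libraries and to at most 0.545 CPM in NIH/3T3 libraries. The sum over 6 fibroblast markers came to between 4060 and 10200 CPM in NIH/3T3 and to between 2.03 and 5.07 CPM in CGR8. Not every fibroblast marker followed this sum: at 0 h 5 of the 6 were called lower in CGR8 than in NIH/3T3 and 1 was called higher. The lowest single value of this list was 0 CPM in NIH/3T3, and the highest in CGR8 was 4.51 CPM. A list of 7 markers of differentiation out of the stem cell state summed to between 6.75 and 14.2 CPM in CGR8. No source says whether the 3 replicates were separate cultures, so the p-values measure the spread between these libraries, which may be technical. Levels are CPM, and fold changes are fitted log2 values with their standard errors (SE) from edgeR's quasi-likelihood test. A gene is called where the p-value adjusted by the Benjamini-Hochberg method (BH) over all genes tested is under 0.05. In bulk samples, fewer cells in S phase and less RNA of a gene per cell cannot be told apart.

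At 0 h more of the members were called higher than lower in the stem cells, which also held over all genes tested. Of the 44 members, 24 were higher in CGR8 than in NIH/3T3, 8 were lower, and 12 were not called. Over all 17549 genes tested, 79.1% were called, 42.8% as higher and 36.3% as lower. The median member differed by 0.28 (log2, CGR8 minus NIH/3T3), against 0.15 for all genes tested. Mcm5, a subunit of the MCM helicase, had 314, 325 and 354 CPM in NIH/3T3 and 1090, 1340 and 1080 CPM in CGR8, a difference of 1.82 (SE 0.11, adjusted p = 3.67e-15). The licensing factor Cdt1 differed by 1.71 (adjusted p = 1.46e-13) and the origin recognition subunit Orc1 by 1.51 (adjusted p = 7.2e-11). Lig1, which seals nicks between Okazaki fragments, differed by 1.35. The reverse held for Tk1, the thymidine salvage kinase (-0.97), for the transcription factor E2f1 (-0.97), for the primase subunit Prim2 (-0.70), for the ribonucleotide reductase subunit Rrm1 (-0.62) and for the licensing factor Cdc6 (-0.55). Summed over the 44 members, the level was 6902 to 7138 CPM in the 3 NIH/3T3 libraries and 9105 to 10200 CPM in the 3 CGR8 libraries.

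**Figure D1:**
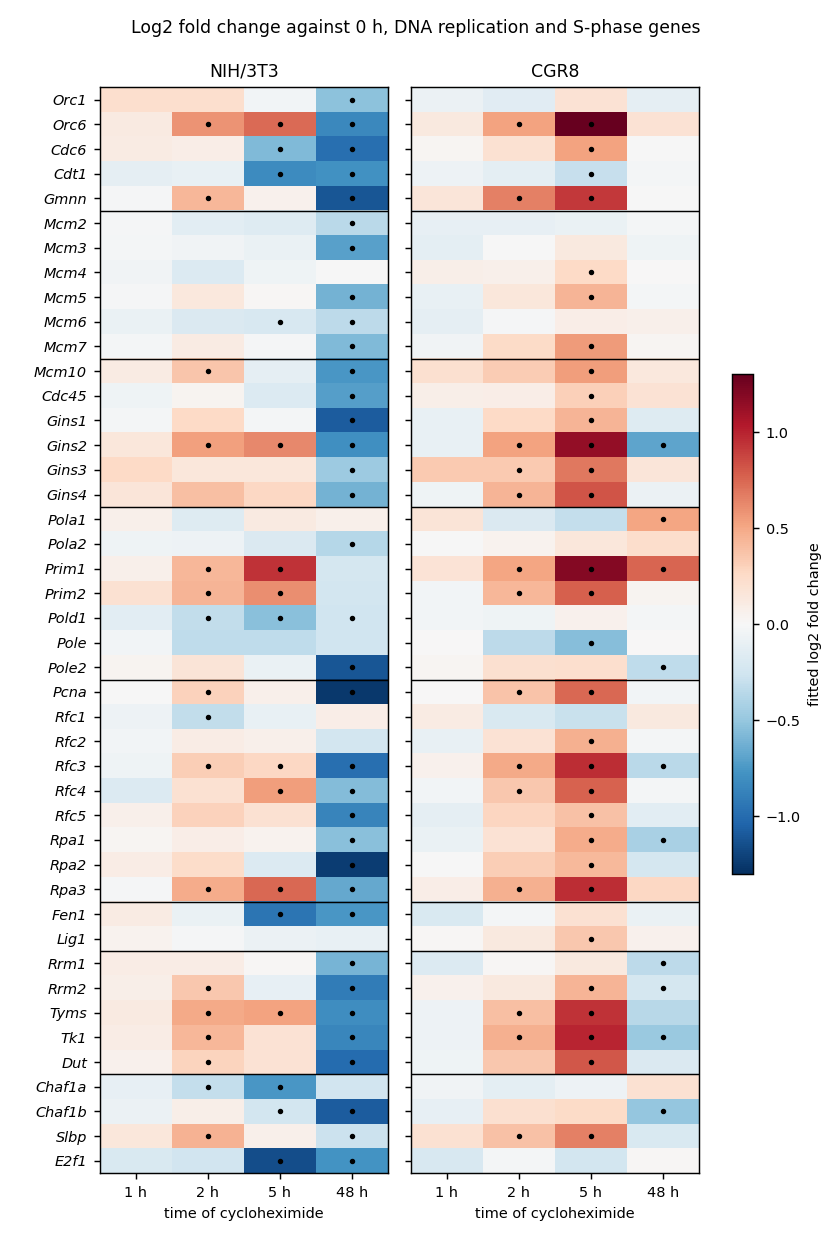
Fitted log2 fold change of each member against 0 h of the same line (rows, grouped by role with black lines; columns, hours of cycloheximide), in NIH/3T3 and CGR8; a black dot marks an adjusted p under 0.05. In NIH/3T3 most rows turn blue at 48 h (35 dots, each with a negative value), and in CGR8 most turn red at 5 h (28 of 30 dots have a positive value) and pale at 48 h.

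After 1 h no member was called in either line, while 0.732% of all genes were called in NIH/3T3 and 0.270% in CGR8. In each line 1 member had an unadjusted p under 0.05, DESeq2 called 0 in each, and the smallest adjusted p over the members was 0.251 in NIH/3T3 and 0.267 in CGR8 (edgeR). The median change was 0.01 in NIH/3T3 and -0.03 in CGR8.

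After 2 h some of the genes had risen in both lines. In NIH/3T3 14 members were higher and 3 were lower, against 16.1% of all genes higher and 18.9% lower (35.0% called in all). In CGR8 14 members were higher and 0 were lower, against 8.97% of all genes higher and 11.0% lower (19.9% in all). The median member changed by 0.15 in NIH/3T3 and 0.20 in CGR8, and the median of all genes by -0.01 and 0.01. In both lines 11 members were higher (11 of the 14 in each): Orc6, Gmnn, Gins2, Prim1, Prim2, Pcna, Rfc3, Rpa3, Tyms, Tk1 and Slbp. The share of all genes higher in both lines is not given here. The nucleotide supply genes had the highest median of the 8 roles in both lines, 0.35 each, with 4 of 5 higher in NIH/3T3 and 2 of 5 in CGR8. None of the 6 MCM helicase genes was called in either line. Pold1, the catalytic subunit of polymerase delta (-0.32), the clamp loader subunit Rfc1 (-0.32) and the chromatin assembly subunit Chaf1a (-0.31) were lower in NIH/3T3.

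Many of these early calls depended on single libraries. Gmnn, which encodes geminin, had 53.5, 53.2 and 55.7 CPM in NIH/3T3 at 0 h and 55.4, 75.4 and 83.3 CPM at 2 h, so that replicate A stood among the controls and B and C above them. Its rise of 0.43 (SE 0.12, adjusted p = 0.0126) lost the call without replicate C of 2 h (0.32, adjusted p = 0.0755). In CGR8, Gmnn had 76.4, 67.8 and 79.4 CPM at 0 h and 106, 103 and 148 CPM at 2 h, a rise of 0.65 (SE 0.13, adjusted p = 0.00417) with no overlap. Leaving out NIH/3T3 0 h A or 2 h C lowered the NIH/3T3 count from 17 to 8, and leaving out 0 h B lowered it to 11. With library size alone as the scale, 12 members were higher and 5 lower in NIH/3T3 at 2 h. In CGR8 the count fell from 14 to 2 without 2 h C, to 3 without 0 h A and to 6 without 0 h C.

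After 5 h the lines had parted. In CGR8 28 of the 44 members rose and 2 fell, with a median of 0.44. In NIH/3T3 8 rose and 8 fell, with a median of -0.02. The median of all genes was -0.01 in both lines. The shares called over all genes were alike, 24.0% higher and 27.1% lower in NIH/3T3 (51.0% in all) and 24.9% higher and 27.2% lower in CGR8 (52.1% in all). The members' 16 calls of 44 in NIH/3T3 thus lay below the background share, and their 28 rises in CGR8 lay above it. Cell type markers moved at the same time. In CGR8 5 of the 6 stem cell markers rose and 1 fell at 5 h (median 0.68), and their sum was 5950 to 7190 CPM against 4240 to 4520 CPM at 0 h, after 4840 to 6030 CPM at 2 h. The differentiation markers summed to 6.75 to 8.87 CPM there at 5 h, against 12.7 to 13.2 CPM at 0 h. Of the 5 that were tested, 2 fell and 1 rose. In NIH/3T3 3 of the 5 fibroblast markers tested fell at 5 h and 0 rose (median -0.55), and the list summed to 4250 to 4860 CPM against 6570 to 7300 CPM at 0 h, after 4060 to 5230 CPM at 2 h. The part of these shifts in the members' changes was not tested.

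The licensing genes went separate ways. Cdc6 had 152, 149 and 150 CPM in NIH/3T3 at 0 h and 102, 93.7 and 101 CPM at 5 h, and all 3 treated libraries lay below the controls. It fell by 0.57 there (SE 0.08, adjusted p = 3.34e-05). In CGR8 Cdc6 had 98.3, 109 and 101 CPM at 0 h and 146, 162 and 151 CPM at 5 h, all above the controls. It rose by 0.52 (SE 0.08, adjusted p = 9.99e-05), and Cdc6 was the single member that fell in one line and rose in the other. Its partner in helicase loading, Cdt1, had 98.6, 83.2 and 100 CPM in NIH/3T3 at 0 h and 53.9, 48.5 and 53.8 CPM at 5 h, with no overlap, a change of -0.82 (SE 0.11, adjusted p = 2.75e-05). In CGR8 Cdt1 had 319, 324 and 276 CPM at 0 h and 293, 251 and 233 CPM at 5 h. Replicate A overlapped the controls, and the change of -0.30 (adjusted p = 0.0338) lost its call in 4 of 6 fits with 1 library left out (adjusted p between 0.0978 and 0.112 without 0 h A, 0 h B, 5 h B or 5 h C). Over all 15 alternatives run, this call was lost in 11, among them DESeq2.

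Gmnn, whose product inhibits CDT1, rose in the stem cells and was not called in the fibroblasts. It reached 169, 140 and 130 CPM in CGR8 at 5 h, all above the 0 h libraries, a rise of 0.92 (SE 0.13, adjusted p = 4.87e-05). In NIH/3T3 Gmnn had 58.7, 54.2 and 52.6 CPM at 5 h, which overlapped the controls (0.06, adjusted p = 0.702). Orc6, the small subunit of the origin recognition complex, rose in both lines. It had 109, 119 and 110 CPM in NIH/3T3 at 0 h and 183, 185 and 181 CPM at 5 h (0.73, SE 0.12, adjusted p = 0.000145). In CGR8 Orc6 went from 118, 114 and 127 CPM to 346, 280 and 286 CPM (1.29, SE 0.12, adjusted p = 1.5e-06), with no overlap in either line. Orc1 was not called in either line at 5 h (-0.03 in NIH/3T3 and 0.19 in CGR8).

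**Figure D2:**
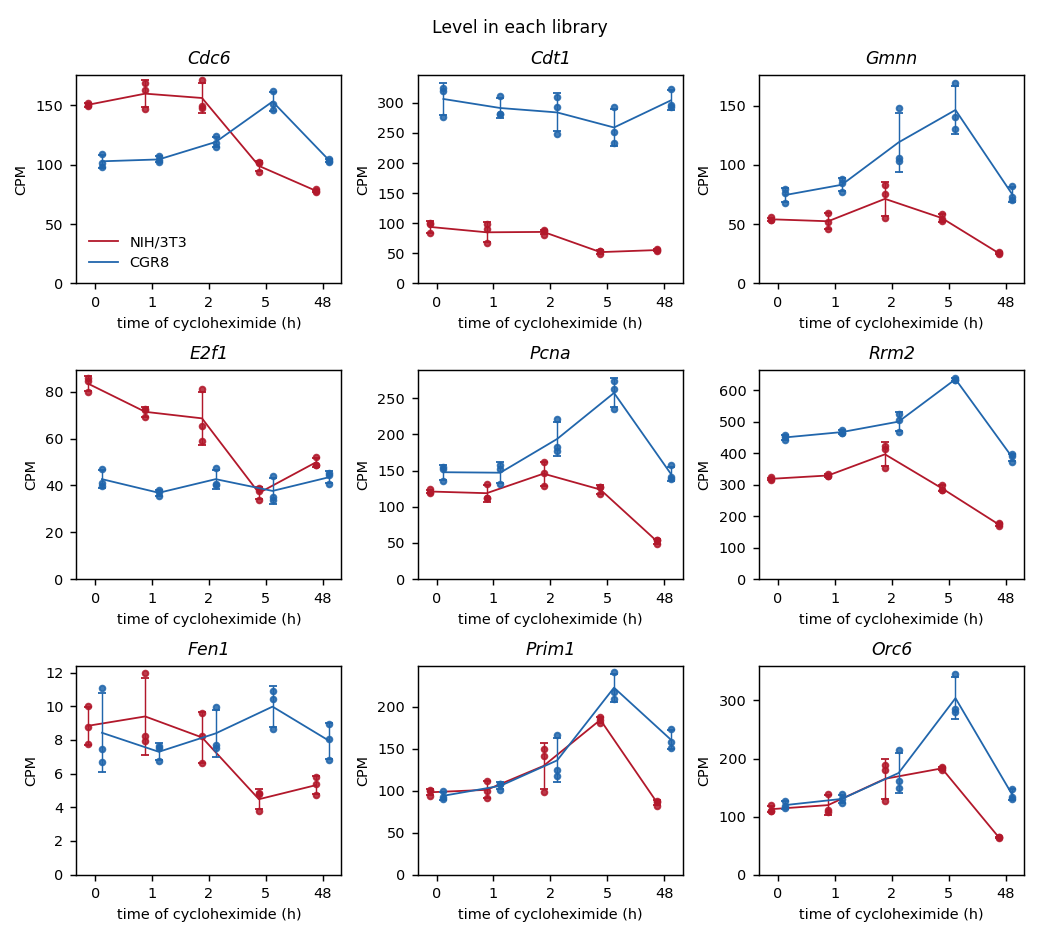
Level (CPM) of 9 members in each library (points) by hours of cycloheximide, with the mean of 3 libraries joined by a line and the SD as bars, NIH/3T3 in red and CGR8 in blue. Cdc6 falls in NIH/3T3 while it rises to 146 to 162 CPM in CGR8 at 5 h, E2f1 falls in NIH/3T3 to 33.9 to 38.8 CPM, and Pcna and Rrm2 peak at 5 h in CGR8 and are lowest at 48 h in NIH/3T3.

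The MCM subunits form the ring of the helicase. In CGR8 Mcm4, Mcm5 and Mcm7 rose and Mcm2, Mcm3 and Mcm6 were not called, with a median of 0.20 over the 6. Mcm7 went from 518, 615 and 519 CPM to 886, 899 and 730 CPM, all above the controls (0.55, SE 0.10, adjusted p = 0.000343). The rise of Mcm4 (0.26, adjusted p = 0.024) lost its call in 4 of the 6 fits with 1 library left out, without 0 h A, 0 h C, 5 h B or 5 h C (0.0542 to 0.0891). In NIH/3T3 Mcm6 alone was called, from 486, 462 and 475 CPM to 400, 397 and 406 CPM. These groups did not overlap, but the fall of 0.21 (SE 0.08, adjusted p = 0.0402) passed in none of the 6 fits that left out 1 library of either time (adjusted p between 0.064 and 0.126).

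All 6 helicase activators were called higher in CGR8 in the main fit (Mcm10, Cdc45 and the 4 GINS genes), with a median of 0.62. Once GC content and length trends were removed, Gins1 (-0.11, adjusted p = 0.204) and Cdc45 (0.11, adjusted p = 0.259) were not called there. Gins2 had 56.1, 72.5 and 53 CPM at 0 h and 164, 147 and 104 CPM at 5 h, a rise of 1.14 (SE 0.17, adjusted p = 4.9e-05) with no overlap. In NIH/3T3 it went from 36.3, 38.2 and 42.9 CPM to 66.8, 55.3 and 54.8 CPM (0.62, SE 0.13, adjusted p = 0.000847), and the other 5 activators were not called there. Cdc45, the helicase cofactor, had the smallest rise of the 6 in CGR8 (0.31, adjusted p = 0.0121), which lost its call without 0 h A (0.27, adjusted p = 0.0609). Over all 15 alternatives run, the Cdc45 call was lost in 6.

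Both primase genes rose in both lines at 5 h. Prim1, the catalytic primase subunit, had 94, 101 and 99 CPM in NIH/3T3 at 0 h and 188, 184 and 181 CPM at 5 h (0.94, SE 0.12, adjusted p = 1.05e-05). In CGR8 Prim1 went from 92, 90.5 and 99.1 CPM to 241, 209 and 218 CPM (1.19, SE 0.12, adjusted p = 1.54e-06), and neither line showed an overlap. The second primase subunit, Prim2, changed by 0.60 in NIH/3T3 (adjusted p = 0.000301) and by 0.77 in CGR8 (adjusted p = 0.000103). Among the polymerase genes, Pold1 went from 96.9, 97.8 and 109 CPM to 67.1, 66.8 and 69.8 CPM in NIH/3T3 (-0.54, SE 0.11, adjusted p = 0.000531). Pole, the catalytic subunit of polymerase epsilon, went from 165, 148 and 169 CPM to 94.1, 115 and 132 CPM in CGR8 (-0.55, SE 0.14, adjusted p = 0.00378). Both falls were free of overlap between libraries, and neither was called once GC content and length trends were removed. Pold1 was not called in CGR8 (0.06, adjusted p = 0.684). Pola1, Pola2 and Pole2 were not called in either line at 5 h.

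The clamp, its loader and the single-strand binding proteins rose in CGR8 in 8 of 9 cases, Rfc1 being the exception (-0.29, adjusted p = 0.0555). Pcna, the sliding clamp, had 136, 152 and 155 CPM at 0 h and 274, 263 and 235 CPM at 5 h, a rise of 0.75 (SE 0.11, adjusted p = 4.22e-05) with no overlap. In NIH/3T3 its libraries overlapped, with 124, 120 and 119 CPM at 0 h and 127, 127 and 117 CPM at 5 h (0.07, adjusted p = 0.574). Named Pcna and Tyms pseudogenes exist, so reads of these 2 genes may be shared with their copies. Rpa3, the smallest RPA subunit, rose in both lines. It went from 51.3, 54.6 and 52.2 to 90.6, 88 and 80.7 CPM in NIH/3T3 (0.75, SE 0.14, adjusted p = 0.000362). In CGR8 it went from 45.7, 48 and 47.8 to 98.4, 95.9 and 92 CPM (0.96, SE 0.11, adjusted p = 8.05e-06). Once GC content and length trends were removed, Rpa3 was lower in NIH/3T3 (-0.36, adjusted p = 0.000232) and not called in CGR8 (-0.10, adjusted p = 0.624). Rfc3 rose in CGR8 (0.96) and less in NIH/3T3 (0.26, adjusted p = 0.0425), where the call was lost in each of the 6 fits that left out 1 library of 0 or 5 h (0.0509 to 0.13). Rfc4 rose in both (0.54 in NIH/3T3, 0.76 in CGR8), but neither rise was called once GC content and length trends were removed. Rfc5 rose by 0.38 in CGR8 and lost its call without 0 h A, 0 h C or 5 h B (adjusted p between 0.0677 and 0.0847).

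Among the genes of lagging-strand joining, Fen1, the flap endonuclease, was counted at a low level. It had 8.77, 10 and 7.74 CPM in NIH/3T3 at 0 h and 3.8, 4.78 and 4.84 CPM at 5 h, with no overlap (-0.95, SE 0.19, adjusted p = 0.000552). In CGR8 its libraries overlapped, with 6.71, 11.1 and 7.45 CPM at 0 h and 10.4, 10.9 and 8.62 CPM at 5 h (0.19, adjusted p = 0.375). Lig1 rose in CGR8, from 405, 455 and 428 to 637, 575 and 493 CPM (0.35, SE 0.10, adjusted p = 0.00639), and was not called in NIH/3T3 at any time.

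Of the 5 genes of nucleotide supply, 4 rose in CGR8, with a median over the 5 of 0.81, the highest of the 8 roles there. Tk1 had 98.9, 116 and 95.6 CPM at 0 h and 246, 216 and 180 CPM at 5 h, all above the controls (0.99, SE 0.12, adjusted p = 1.28e-05). Rrm2, the small subunit of ribonucleotide reductase, had 442, 457 and 452 CPM at 0 h and 632, 634 and 641 CPM at 5 h (0.44, SE 0.08, adjusted p = 0.000278). Tyms, thymidylate synthase, rose by 0.94 and Dut, which removes dUTP, by 0.81, whereas Rrm1 was not called (0.13, adjusted p = 0.362). In NIH/3T3 Tyms alone was called, from 120, 119 and 121 to 170, 169 and 166 CPM (0.52, SE 0.13, adjusted p = 0.00274). There Rrm2 had 323, 318 and 315 CPM at 0 h and 300, 284 and 282 CPM at 5 h, a change of -0.11 that was not called (adjusted p = 0.232).

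In the last role, 3 of 4 genes fell in NIH/3T3 and none fell in CGR8. E2f1 had 84.5, 80 and 86 CPM at 0 h, 72.4, 72.9 and 69.2 CPM at 1 h, 81.4, 59.2 and 65.5 CPM at 2 h and 38.8, 33.9 and 37.7 CPM at 5 h. All 5 h libraries lay below the controls, with a change of -1.15 (SE 0.11, adjusted p = 4.88e-07), the largest fall of any member in NIH/3T3 at that time. In CGR8 E2f1 had 41.2, 47 and 39.9 CPM at 0 h and 44.1, 35 and 33.9 CPM at 5 h, which overlapped (-0.24, adjusted p = 0.095). The 2 chromatin assembly subunits fell in NIH/3T3, Chaf1a by 0.76 (adjusted p = 5.59e-05) and Chaf1b by 0.24 (adjusted p = 0.0286, lost without 0 h B, 0 h C, 5 h B or 5 h C, 0.0679 to 0.106). Slbp, which binds the histone mRNA stem loop, rose in CGR8 from 112, 102 and 120 to 192, 172 and 180 CPM (0.65, SE 0.11, adjusted p = 0.000154) and was not called in NIH/3T3 (0.07).

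**Figure D3:**
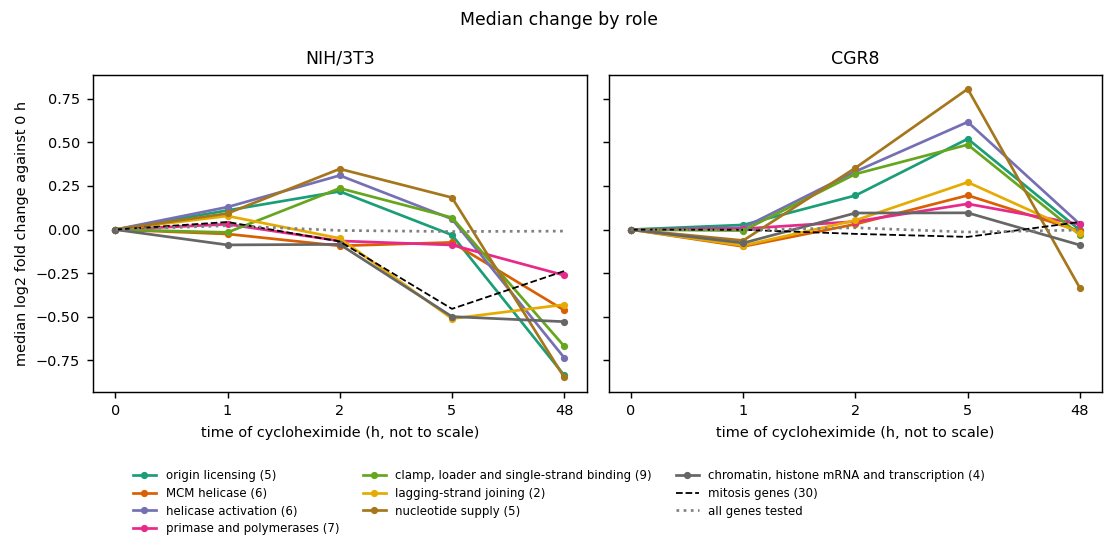
Median fitted log2 fold change against 0 h of each role (number of genes in brackets), of 30 mitosis genes (dashed) and of all genes tested (dotted), by hours of cycloheximide, which are evenly spaced and not to scale. In CGR8 nucleotide supply (0.81) and helicase activation (0.62) stand highest at 5 h, and in NIH/3T3 all 8 roles are below 0 at 48 h.

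After 48 h the replication genes had fallen in NIH/3T3 and were near their starting level in CGR8. In NIH/3T3 35 of 44 members fell and 0 rose, with a median of -0.64 against -0.01 for all genes, of which 25.6% fell and 26.7% rose (52.3% called). In CGR8 8 fell and 2 rose, with a median of -0.02, against 15.6% of all genes lower and 12.2% higher (27.8% called). The summed level of the 44 members was 5040, 4944 and 4888 CPM in NIH/3T3 at 48 h, below the 6902 CPM of its lowest control. In CGR8 it was 9107, 9729 and 9220 CPM at 48 h, within the spread of its controls, after 13310, 13380 and 11730 CPM at 5 h. The 9 members not called in NIH/3T3 at 48 h were Mcm4, Pola1, Prim1, Prim2, Pole, Rfc1, Rfc2, Lig1 and Chaf1a. Fibroblast markers summed to 10100 to 10200 CPM in NIH/3T3 at 48 h, against 6570 to 7300 CPM at 0 h, and the 30 mitosis genes to 4390 to 4530 CPM against 4860 to 4930 CPM; their part in the fall was not tested.

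By role, all 5 licensing genes, all 6 helicase activators and all 5 nucleotide supply genes fell in NIH/3T3, as did 5 of 6 MCM genes, 7 of 9 clamp, loader and RPA genes, and 3 of 7 primase and polymerase genes. Pcna had 53.9, 47.8 and 53.8 CPM, all below the 0 h libraries given above, which is a fall of 1.25 on the log2 scale (SE 0.10, adjusted p = 5.35e-08). Rpa2 went from 81, 80.8 and 90.5 to 39.2, 36 and 34 CPM (-1.24, adjusted p = 3.79e-08). In CGR8 these 2 genes returned to 141, 157 and 138 CPM and to 128, 153 and 136 CPM, and both overlapped their controls.

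Gmnn had 26.3, 25 and 25.5 CPM in NIH/3T3 at 48 h (-1.11, SE 0.12, adjusted p = 2.34e-06) and 73, 81.9 and 70.2 CPM in CGR8, which overlapped its controls (0.00, adjusted p = 0.989). Cdc6 had 77.7, 77.2 and 79.1 CPM in NIH/3T3 (-0.98, SE 0.08, adjusted p = 1.27e-07) and 102, 103 and 105 CPM in CGR8, which overlapped the controls. Cdt1 and E2f1, which had fallen by 5 h, were also below their controls in NIH/3T3 at 48 h, Cdt1 with 56.7, 54.1 and 55.7 CPM (-0.79) and E2f1 with 48.7, 48.7 and 52.2 CPM (-0.77). E2f1 was by then higher than at 5 h (0.38, adjusted p = 0.00493). In CGR8 neither was called against 0 h.

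The MCM gene with the largest fall was Mcm3, from 491, 483 and 514 to 319, 306 and 303 CPM (-0.71, SE 0.08, adjusted p = 1.67e-06), whereas Mcm4 had 503, 497 and 482 CPM against 502, 487 and 473 CPM at 0 h (-0.01, adjusted p = 0.939). Gins1 went from 49.8, 48 and 47.8 to 24.1, 23.3 and 22.7 CPM (-1.08, SE 0.10, adjusted p = 4.85e-07). Pole2, the second subunit of polymerase epsilon, went from 42.4, 46.7 and 39.8 to 20.4, 21.3 and 18.9 CPM (-1.12, SE 0.11, adjusted p = 9.29e-07). The groups of all 3 falling genes were separate. Dut went from 157, 152 and 152 to 79.8, 76.5 and 78.9 CPM, and fell by 1.00 on the log2 scale (SE 0.09, adjusted p = 2.85e-07), and Rrm2 had 177, 176 and 168 CPM (-0.91, SE 0.08, adjusted p = 1.15e-07). Chaf1b went from 87.3, 90.9 and 93.7 to 45.2, 44.4 and 41.4 CPM (-1.08, SE 0.09, adjusted p = 7.06e-08), and Fen1 had 5.38, 5.79 and 4.75 CPM (-0.76, SE 0.19, adjusted p = 0.00267). Of the 35 falls, those of Pold1 (-0.26) and Slbp (-0.28) lost their call when single libraries were left out, Pold1 in all 6 such fits (adjusted p between 0.0594 and 0.159) and Slbp in 5 of 6 (0.067 to 0.0955, all but 0 h C).

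In CGR8 at 48 h the 2 higher members were both of the primase and polymerase alpha complex. Prim1 had 151, 173 and 158 CPM, all above its controls (0.76, SE 0.12, adjusted p = 0.000149). Pola1, the catalytic subunit of polymerase alpha, went from 179, 159 and 193 to 259, 235 and 269 CPM (0.51, SE 0.16, adjusted p = 0.025) and lost its call without 0 h A, 0 h B, 48 h A or 48 h C (0.0615 to 0.0913). The 8 lower members, against 15.6% of all genes lower, were Gins2, Chaf1b, Tk1, Rpa1, Rfc3, Rrm1, Pole2 and Rrm2. In NIH/3T3 35 of the 44 members were lower, these 8 among them. The share of all genes lower in both lines is not given here. With library size alone as the scale, 1 member was higher and 10 were lower in CGR8. Gins2 had 38.2, 40.7 and 35.1 CPM (-0.68, SE 0.17, adjusted p = 0.0062), Chaf1b changed by -0.50 (adjusted p = 0.00525) and Rpa1 by -0.42 (adjusted p = 0.00438), each with no overlap. Tk1 had 74.5, 81.2 and 69.1 CPM (-0.48, SE 0.12, adjusted p = 0.00872) and missed the threshold without 0 h B (-0.39, adjusted p = 0.0519). Rfc3, Rrm1, Rrm2 and Pole2 lost their calls in 5, 5, 6 and 3 of the 6 fits that left out 1 library (adjusted p between 0.0509 and 0.231), so that 4 of the 10 calls held in every such fit.

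From 5 to 48 h most members fell in both lines, by a median of 0.62 in NIH/3T3 (32 lower, 3 higher) and of 0.52 in CGR8 (31 lower, 5 higher). Over all genes 31.4% were lower and 34.1% higher in NIH/3T3 over this interval (65.6% called), and 28.6% lower and 28.9% higher in CGR8 (57.5% called). In CGR8 21 members rose by 5 h, fell again by 48 h and were not called between 48 and 0 h, among them Cdc6, Gmnn, Orc6, Mcm7 and Pcna. In NIH/3T3 6 members that had risen at 5 h were below their controls at 48 h: Orc6, Gins2, Rfc3, Rfc4, Rpa3 and Tyms. Shares of all genes with these joint patterns are not given here. The changes at 5 and 48 h share their 0 h libraries, and 48 against 5 h shares libraries with both.

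The difference between the lines was tested directly, as the change in CGR8 minus the change in NIH/3T3. At 1 and 2 h no member was called. At 2 h 1 member had an unadjusted p under 0.05 and at 1 h 0 had, DESeq2 called 0 at both times, and 0.160% and 2.02% of all genes were called at 1 and 2 h. At 5 h 29 of 44 members differed, each with the higher value in CGR8, against 8.18% of 17549 genes called in that direction and 5.09% in the other (13.3% in all). At 48 h 26 differed, again each with the higher value in CGR8, against 9.78% in that direction and 12.1% in the other (21.9% in all). The median member differed by 0.56 at 5 h and 0.57 at 48 h, and the median of all genes by 0.13 and -0.03. Of the members, 20 differed at both times, 9 at 5 h alone, 6 at 48 h alone and 9 at neither time. The matching shares of all genes are not given here.

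At 5 h Fen1 (1.23, SE 0.27, adjusted p = 0.00224), Cdc6 (1.18, SE 0.11, adjusted p = 2.35e-08) and E2f1 (1.00, SE 0.15, adjusted p = 5.47e-05) had the largest differences. All 3 were genes that fell in NIH/3T3. At 48 h Pcna (1.20, SE 0.15, adjusted p = 9.07e-07), Gmnn (1.09, SE 0.19, adjusted p = 0.000131) and Orc6 (1.00, SE 0.18, adjusted p = 0.000182) led. Neither time was called for Orc1, Mcm2, Gins2, Pola1, Prim2, Pole, Rfc1, Rrm1 and Tyms, of which Gins2, Prim2 and Tyms rose in both lines at 5 h. The count at 5 h fell from 29 to 10 without CGR8 5 h A and to 15 without CGR8 5 h B, and without either library the members that remained called were again higher in CGR8. With library size alone as the scale it was 19, the median member 0.37 and the median of all genes -0.06, so that the members exceeded all genes by 0.43 under both scalings. The count at 48 h stayed between 23 and 31 whichever single library was left out.

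**Figure D4:**
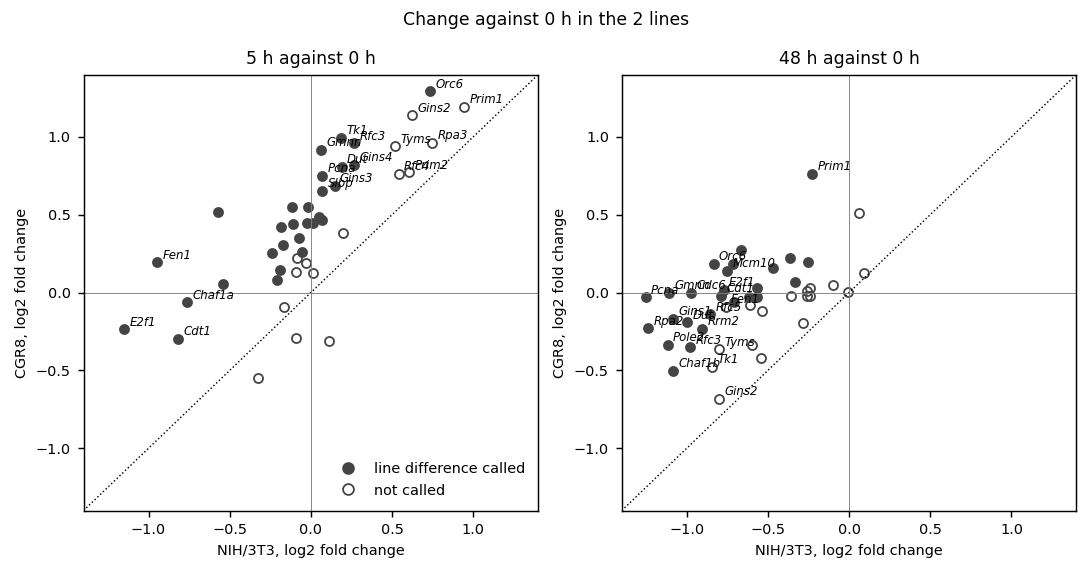
Log2 fold change against 0 h in NIH/3T3 (horizontal) and CGR8 (vertical) for the 44 members at 5 h and 48 h, with filled points where the line difference was called and the dotted line where both changes are equal; members with larger changes are named. All points lie above the dotted line except 3 at 5 h (Pola1, Pole and Rfc1), and Mcm4 lies almost on it at 48 h.

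Short transcripts were counted relatively more and long ones less at 2 and 5 h over the whole transcriptome, and this moved with the members' changes. The slope of log2 CPM per doubling of transcript length, set against the mean of the 0 h libraries, was -0.34, -0.21 and -0.17 in the 3 CGR8 libraries at 5 h, -0.11, -0.11 and -0.09 in those of NIH/3T3 at 5 h, and 0.11, 0.11 and 0.12 in those of NIH/3T3 at 48 h. At 2 h, when the first rises were called, it was -0.07, -0.10 and -0.13 in NIH/3T3 and -0.15, -0.06 and -0.19 in CGR8. Among the members, the 10 with a longest transcript under 2000 nucleotides had a median change of 0.78 in CGR8 at 5 h and the 14 above 3500 nucleotides one of 0.32, while all genes of these lengths had medians of 0.43 and -0.36. In NIH/3T3 at 48 h the medians were -1.04 for the short members and -0.44 for the long ones, against -0.22 and 0.17 for all genes. At 2 h the short members had medians of 0.30 in NIH/3T3 and 0.36 in CGR8 and the long ones 0.09 and 0.12, against 0.24 and 0.24 for all short genes and -0.18 and -0.19 for all long ones. Across the 44 members the change correlated with log length at r = -0.528 in NIH/3T3 and r = -0.569 in CGR8 at 2 h, at r = -0.322 and r = -0.502 at 5 h, and at r = 0.519 and r = 0.013 at 48 h, a description over genes that share libraries.

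**Figure D5:**
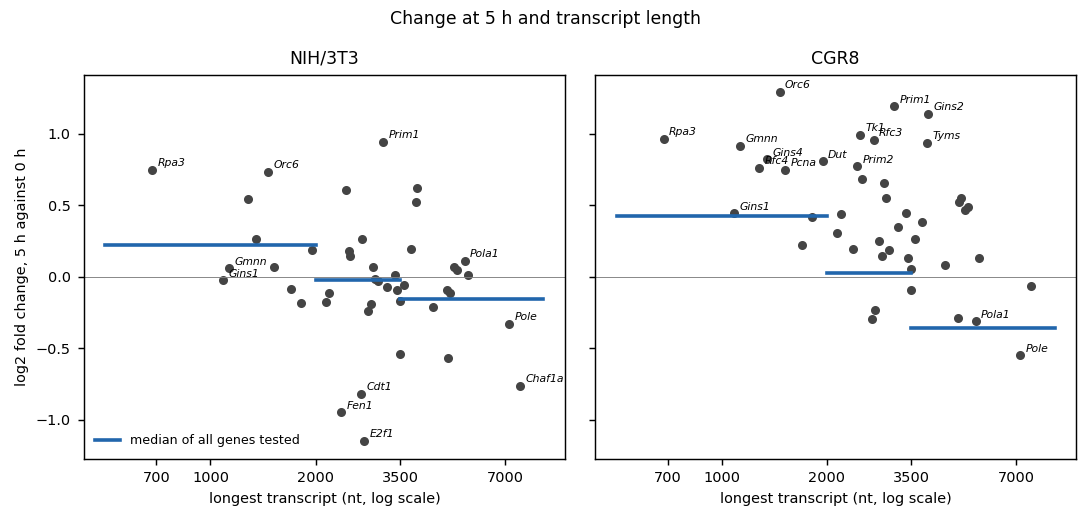
Log2 fold change at 5 h against the longest annotated transcript (nucleotides, log axis) for the 44 members (points) in NIH/3T3 and CGR8, with the median of all genes tested in 3 length classes as bars. In CGR8 short members stand higher, with medians of 0.78 below 2000 and 0.32 above 3500 nucleotides, and both lie above the bars of all genes (0.43 and -0.36).

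With GC content and length trends removed from the counts, 27 members rose and 2 fell in CGR8 at 5 h (median 0.36), 9 rose and 14 fell in NIH/3T3 at 5 h, 39 fell in NIH/3T3 at 48 h, and the line differences numbered 30 at 5 h and 33 at 48 h. The shares of all genes called under this setting are not given here, so these counts have no background beside them. The 2 falls in CGR8 at 5 h were other genes than before, Pola1 (-0.30, adjusted p = 0.0026) and Pole2 (-0.21, adjusted p = 0.0469). Cdt1 was no longer called there (-0.05, adjusted p = 0.629). Single genes moved more. In NIH/3T3 at 5 h Pcna (-0.22, adjusted p = 0.0098) and Rrm2 (-0.28, adjusted p = 0.00166) were now called lower, as were Gins1, Pole2, Rpa2, Pola2 and Cdc45. Rfc5, Mcm5, Mcm7 and Tk1 were now called higher there. Rpa3, the shortest member at 682 nucleotides, changed sign at 5 h in NIH/3T3 (-0.36, adjusted p = 0.000232) and in CGR8 (-0.10, adjusted p = 0.624), and Gins1 did in CGR8 (-0.11, adjusted p = 0.204). Rfc4 was no longer called at 5 h in either line (0.11 and 0.16), Pold1 was no longer called in NIH/3T3 at 5 h (-0.03), nor Pole in CGR8 (-0.09), whereas Pold1 was higher in CGR8 at 5 h (0.59, adjusted p = 4.68e-05), where it had not been called before. The rise of Orc6 in CGR8 shrank from 1.29 to 0.81 and that of Pcna from 0.75 to 0.28, both still called, and Prim1 kept 1.01.

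The wider replication machinery was summarised from a second list of 50 symbols, of which 49 were tested, since Chtf8 matched 2 identifiers. In NIH/3T3 at 5 h 19 of the 49 were higher and 17 lower (median 0.09), and at 48 h 2 were higher and 31 lower (median -0.44). The shares over all genes in these comparisons, given above, were 24.0% higher and 27.1% lower at 5 h and 26.7% higher and 25.6% lower at 48 h. In CGR8 17 were higher and 8 lower at 5 h (median 0.01), and 2 were higher and 8 lower at 48 h (median -0.12), against 24.9% of all genes higher and 27.2% lower at 5 h and 12.2% higher and 15.6% lower at 48 h. The line difference was called for 11 at 5 h, 10 of them higher in CGR8, and for 21 at 48 h, 19 of them higher in CGR8. Over all genes, 13.3% differed between the lines at 5 h and 21.9% at 48 h. At 5 h Orc2, another origin recognition subunit, went from 128 ± 8 to 251 ± 12.7 CPM in NIH/3T3 (SD, n = 3; 1.01, edgeR adjusted p = 2.42e-06). E2f8, a repressor of the E2F family, went from 44.8 ± 0.789 to 21 ± 2.74 CPM there (-1.06, edgeR adjusted p = 2.05e-05). In CGR8 Dtymk, which makes dTDP, went from 190 ± 3.85 to 466 ± 71.5 CPM at 5 h (1.24, edgeR adjusted p = 6.57e-06), and Ticrr, which helps recruit CDC45, from 188 ± 5.67 to 105 ± 17.9 CPM (-0.89, edgeR adjusted p = 0.00011). At 48 h the activator E2f2 was at 1.89 ± 0.486 CPM in NIH/3T3 against 6.86 ± 0.876 CPM at 0 h (-1.86, edgeR adjusted p = 1.13e-06), while Donson, a replisome assembly factor, rose by 0.52. In CGR8 at 48 h the cyclin gene Ccne2 fell by 1.07 and the histone chaperone Nasp rose by 0.40.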

How the data were processed

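Poly(A) RNA from 30 libraries was counted per gene. The values are raw counts as the authors deposited them, 1 column per library, whole numbers with unequal totals (18.2 to 30.5 M counts). Per the submitters' processing notes, STAR, DESeq2 and GRCm39 were used, with no roles or versions, and the annotation and use of strand are not given in the sources used here. Gene symbols came from GENCODE M21 on GRCm38 for 51880 of 57186 identifiers (90.7%), so no gene coordinates are given beyond RefSeq promoters. Overlaps with other genes were on the same strand for 11 members and on the other for 18, and their counts are uncertain to that extent.

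Counts were fitted with edgeR 4.0.16 in R 4.3.3 (filterByExpr, minimum count 10 and total 15; TMM factors; quasi-likelihood F test; BH over all genes; called under 0.05). Each line was fitted on its 15 libraries, and the lines were compared in 1 model of all 30. CPM is the deposited count over the library total times its TMM factor. No pair of replicates was a duplicate (lowest chi-square per degree of freedom 1.67). By rule, values in every library are given for the called member with the largest change in each role at 5 and 48 h in each line, and always for Cdc6, Cdt1, Gmnn, E2f1, Pcna and Rrm2. For the other replication genes the largest called rise and fall were named; further genes given were chosen after their values were seen. The members and lists were chosen with earlier results of these data known. Alternatives were RLE and library size scaling, DESeq2 1.42.0, no filter, a mean of at least 5 CPM, the compared groups alone, a replicate block, removal of GC and length trends, and each library left out in turn. The fits were tested on simulated data.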

Additional observations from a re-analysis of the deposited data

Results flagged for a closer look

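The following members are listed because the change from 0 h differed between the 2 lines by a test of the difference itself (edgeR's interaction contrast over all 30 libraries, BH adjusted p under 0.05). Each value is the log2 change in CGR8 minus that in NIH/3T3, and each was above 0.

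Among licensing genes, the values at 5 h were 0.65 for Orc6, 1.18 for Cdc6, 0.61 for Cdt1 and 0.95 for Gmnn. In the MCM helicase, they were 0.41 for Mcm4, 0.52 for Mcm5, 0.38 for Mcm6 and 0.66 for Mcm7. For helicase activation, they were 0.75 for Mcm10, 0.57 for Cdc45, 0.56 for Gins1, 0.63 for Gins3 and 0.65 for Gins4. For primase and polymerases, they were 0.42 for Pola2 and 0.69 for Pold1. For the clamp, its loader and RPA, they were 0.77 for Pcna, 0.49 for Rfc2, 0.78 for Rfc3, 0.53 for Rpa1 and 0.69 for Rpa2. For lagging-strand joining, they were 1.23 for Fen1 and 0.51 for Lig1. For nucleotide supply, they were 0.64 for Rrm2, 0.90 for Tk1 and 0.71 for Dut. Among the genes of chromatin assembly, histone mRNA and transcription, they were 0.79 for Chaf1a, 0.58 for Chaf1b, 0.67 for Slbp and 1.00 for E2f1. Leaving out CGR8 5 h A moved 19 of the 29 below the threshold. That library also had the steepest slope of level on transcript length (-0.34 per doubling), and its part in the values was not tested.

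Among licensing genes, the values at 48 h were 1.00 for Orc6, 0.96 for Cdc6, 0.75 for Cdt1 and 1.09 for Gmnn. In the MCM helicase, they were 0.63 for Mcm3, 0.57 for Mcm5, 0.38 for Mcm6 and 0.58 for Mcm7. For helicase activation, they were 0.88 for Mcm10, 0.88 for Cdc45, 0.90 for Gins1 and 0.61 for Gins3. For primase and polymerases, they were 0.57 for Pola2, 0.97 for Prim1 and 0.76 for Pole2. For the clamp, its loader and RPA, they were 1.20 for Pcna, 0.61 for Rfc3, 0.52 for Rfc4, 0.70 for Rfc5, 0.99 for Rpa2 and 0.92 for Rpa3. For nucleotide supply, they were 0.66 for Rrm2 and 0.79 for Dut. Among the genes of chromatin assembly, histone mRNA and transcription, they were 0.43 for Chaf1a, 0.56 for Chaf1b and 0.77 for E2f1. Of the 26 members at 48 h, 23 passed in each of the 21 alternatives run. Chaf1a, Mcm6 and Rfc4 did not.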

How the results depend on the processing

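The falls in NIH/3T3 at 48 h and the line differences at 48 h were the most stable: 33 of 35 and 23 of 26 calls passed under every alternative run (scaling, filter, tool, groups, block, trends and 1 library left out). At 5 h 10 of 16 calls did in NIH/3T3, 20 of 30 in CGR8 and 9 of 29 line differences, at 2 h 6 of 17 and 1 of 14, and in CGR8 at 48 h 4 of 10. Comparing groups alone gave 25 members in NIH/3T3 at 5 h and 1 in CGR8 at 2 h. Without a filter 9 were called in CGR8 at 2 h and 6 at 48 h. Shares of all genes called under the alternatives of this section are not given here. Scaling by library size gave 19 line differences at 5 h, moved the median of all genes in CGR8 at 5 h from -0.01 to -0.12, and left the members 0.46 above it both ways. The cause was not tested.

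With 1 library left out, counts ran from 8 to 22 (NIH/3T3, 2 h), 13 to 14 (5 h), 33 to 34 (48 h), 2 to 17 (CGR8, 2 h), 26 to 32 (5 h), 5 to 8 (48 h), 10 to 32 (line difference, 5 h) and 23 to 31 (48 h). A lone remaining pair of libraries was tested against the spread of all groups.

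Removing GC and length trends reversed Rpa3 (-0.2019 and -0.3616 in NIH/3T3 at 2 and 5 h, -0.1114 and -0.0969 in CGR8), Rfc3 (-0.0045) in NIH/3T3 at 5 h, Gins1 (-0.1061) in CGR8 at 5 h, and Pold1 (0.0142) and Chaf1a (0.0211) in NIH/3T3 at 2 h. With the replicate block as well, the same values were -0.2007, -0.3628, -0.1121, -0.1019, -0.0018, -0.1055, 0.0141 and 0.0216, and 7 members were called in CGR8 at 2 h.

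The replicate block alone gave 35 members in NIH/3T3 at 48 h, 30 in CGR8 at 5 h, and 28 and 27 line differences at 5 and 48 h. Deviations of libraries with the same letter had median correlations of 0.01 in NIH/3T3 (from -0.244 to 0.245) and 0.03 in CGR8 (from -0.523 to 0.373). Correlations over 0.1 were seen in 3 of 30 pairs in NIH/3T3 and 9 of 30 in CGR8, and 8 and 7 of 15 libraries correlated best with their own letter. The letters were not taken as pairs in the main fits, and a shared effect of a letter was not tested.

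Fen1, at 3.8 to 12 CPM, had the widest standard errors among members at 5 h. The effect of depth on single genes was not tested.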

Other observations

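Genes of mitosis form the other large cell-cycle programme. A list of 30 (among them Ccnb1, Plk1, Aurka and Cdc20) had 1 gene higher and 20 lower after 5 h in NIH/3T3 (median -0.45), against 24.0% of all genes higher and 27.1% lower, when the replication genes had 8 in each direction and a median of -0.02. At 48 h 2 mitosis genes were higher and 15 lower (26.7% and 25.6% of all genes), with a median of -0.24, against -0.64 for the replication genes. From 5 to 48 h 12 mitosis genes were higher and 6 lower in NIH/3T3 (median 0.16; 34.1% and 31.4% of all genes), while 32 of the 44 replication genes fell. In CGR8 the mitosis list had 5 higher and 12 lower at 5 h (median -0.04; 24.9% and 27.2% of all genes) and 4 higher and 6 lower at 48 h (median 0.04; 12.2% and 15.6% of all genes). The list was chosen with earlier results of these data known, and the difference between the lists was not tested. In the RefSeq promoter windows, the E2F octamers were found for 1 of 25 mitosis genes (4.0%) and TTTGAA for 17 (68.0%), against 36.1% and 11.1% of the replication genes.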
